A study of Mus musculus with 48 samples.

Results

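The 35 genes described here encode proteins that carry a cell through mitosis and cell division, and they were chosen by name from 29801 genes measured in whole mouse tibia. All 35 were found in the table, and all had a mean of at least 1 FPKM (an expression level corrected for the length of the transcript and the depth of sequencing). They belong to the 13590 genes that were tested. RNA came from the whole tibia of 12 male C57BL/6J mice, with bone and marrow ground together after muscle and connective tissue had been removed. Young AL mice (n = 3) had free access to an NIH-31 diet, and young CR mice (n = 3) received a restricted amount of a modified NIH-31/NIA diet enriched in micronutrients, with the series description giving an age of 10 weeks for both. Aged AL and aged CR mice (n = 3 each) were fed in the same 2 ways, and the description gives them an age of 15 to 18 months. By the study's methods such ages hold for the start of CR, as a range around the stated age in the young mice, so all tibiae were collected from older animals. Caloric restriction lasted 8 weeks, at 10% in the first week, 20% in the second and 40% from the third, so CR and AL mice differed in the diet formula as well as in the amount of food. Each mouse had 4 technical repeats in the labels and 1 value per gene in the table. All mice were male and of 1 inbred strain. The study describes the AL mice as age-matched littermates of the CR mice, and litters are not given in the labels. The study's methods also describe surgery on the right tibia of mice late in the diet period, and whether the sequenced mice had undergone it is not given in the labels.

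In mitosis a cell separates its copied chromosomes. Cyclin B and CDK1 start the process, kinetochores tie the chromosomes to spindle microtubules, the spindle checkpoint waits until all are attached, and the anaphase promoting complex then marks cyclin B and securin for destruction so that the chromosomes part and the cell cleaves. Most of these genes are transcribed only in the G2 and M phases, which makes their RNA a common readout of how many cells in a tissue are cycling. In bone the dividing cells are mainly marrow precursors of red cells, neutrophils and B cells and, while the bone grows, the chondrocytes of the growth plate. In a ground tissue, fewer dividing cells and less of each transcript per dividing cell cannot be told apart.

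Genes of the G2 and M phases are known for 2 promoter elements, the cell cycle genes homology region (CHR), bound by MuvB complexes such as DREAM, and the CCAAT box, bound by NF-Y. RefSeq promoter windows of GRCm38.p6, from 250 bases before to 50 bases after the start of a gene, were held for 31 of the 35 genes, all except Ccna2, Aurkb, Kif20a and Tpx2. Only the first window listed for each gene was used, and it need not lie at the outermost start of the gene. The Kif2c window (chr4:117178723-117179022, minus strand) lies inside the gene, which ends at 117182639. That of Mad2l1 ends at chr6:66535270, before the gene start at 66535390. Other windows of a gene were not searched. The windows were searched on both strands for the CHR as TTTGAA or TTCGAA and for the CCAAT box as CCAAT. The 5 windows below are those of cyclin B2, the anaphase activator CDC20, Polo-like kinase 1, CDK1 and the ubiquitin-conjugating enzyme UBE2C, shown because they hold both elements and because their genes act at successive steps of mitosis. They are written 5′ to 3′ on the strand of the gene, and capitals mark every match on either strand, so that TTCAAA and ATTGG are matches on the opposite strand. The Ccnb2 window lies at chr9:70421505-70421804 on the minus strand, that of Cdc20 at chr4:118437294-118437593 on the minus strand and that of Plk1 at chr7:122159185-122159484 on the plus strand. The Cdk1 window is chr10:69352863-69353162 on the minus strand and the Ube2c window is chr2:164769679-164769978 on the plus strand.
Ccnb2: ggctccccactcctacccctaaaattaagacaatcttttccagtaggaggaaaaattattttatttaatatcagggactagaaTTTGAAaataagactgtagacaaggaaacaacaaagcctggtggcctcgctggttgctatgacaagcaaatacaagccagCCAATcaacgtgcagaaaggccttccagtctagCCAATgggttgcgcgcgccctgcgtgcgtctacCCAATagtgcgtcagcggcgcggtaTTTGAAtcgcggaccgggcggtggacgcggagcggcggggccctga
Cdc20: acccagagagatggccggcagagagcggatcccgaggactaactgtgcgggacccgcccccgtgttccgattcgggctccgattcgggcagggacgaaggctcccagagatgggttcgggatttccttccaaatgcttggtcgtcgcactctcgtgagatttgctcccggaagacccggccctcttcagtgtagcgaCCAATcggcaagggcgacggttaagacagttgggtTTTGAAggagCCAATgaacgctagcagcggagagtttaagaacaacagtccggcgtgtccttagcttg
Plk1: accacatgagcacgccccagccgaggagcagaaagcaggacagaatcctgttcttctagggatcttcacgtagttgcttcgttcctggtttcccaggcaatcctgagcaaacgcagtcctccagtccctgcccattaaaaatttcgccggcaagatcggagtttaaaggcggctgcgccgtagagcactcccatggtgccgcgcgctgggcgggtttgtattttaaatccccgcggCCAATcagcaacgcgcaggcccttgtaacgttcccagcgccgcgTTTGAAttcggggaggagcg
Cdk1: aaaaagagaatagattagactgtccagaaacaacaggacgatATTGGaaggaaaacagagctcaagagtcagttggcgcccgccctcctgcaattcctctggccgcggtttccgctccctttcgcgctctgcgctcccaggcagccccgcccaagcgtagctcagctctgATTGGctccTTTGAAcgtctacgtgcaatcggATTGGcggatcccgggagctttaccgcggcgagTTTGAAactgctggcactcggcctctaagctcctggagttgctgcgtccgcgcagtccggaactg
Ube2c: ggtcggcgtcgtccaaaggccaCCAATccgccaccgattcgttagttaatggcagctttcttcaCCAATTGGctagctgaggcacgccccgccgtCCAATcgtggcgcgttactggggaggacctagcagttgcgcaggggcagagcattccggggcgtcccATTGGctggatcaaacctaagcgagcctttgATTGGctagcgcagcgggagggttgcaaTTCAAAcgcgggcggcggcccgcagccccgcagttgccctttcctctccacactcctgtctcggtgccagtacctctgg

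A CHR match was held by 25 of the 31 windows (80.6%), against 19.4% of 27025 windows of all genes. A CCAAT box match was held by 24 of them (77.4%) against 37.9%, and 22 (71%) held both against 7.7%. In all 22 a CHR lay downstream of a CCAAT box, with the nearest such pair a median of 30 bases apart (9 to 153). Distances were counted from the first base of the CCAAT box to the first base of the CHR. This order was found in 1116 of the 2082 windows of all genes with both, at a median of 58 bases. The CHR matches sat close to the start, since 23 of the 31 windows (74.2%) held one within 50 bases of it, against 5.29% of all windows, a distance chosen after the positions had been seen. E2F motifs (TTCCCGC or TTGGCGC or TTCGCGC or TTGCCGC, on both strands) were in 5 of the 31 windows (16.1%), against 9.69% of all windows. Among 23 windows of genes of DNA replication, E2F motifs were in 56.5%, CCAAT boxes in 60.9% and CHR matches in 17.4%. Among 47 windows of other mitosis genes, E2F motifs were in 27.7%, CCAAT boxes in 70.2% and CHR matches in 63.8%. None of the motifs was found in the windows of Birc5, Mad2l1, Nuf2 and Nusap1, which says only that these letters are not in these windows. Some matches overlap, as do the 2 CCAAT boxes on opposite strands in CCAATTGG of Ube2c. A match is a description of sequence, and binding was not measured.

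**Figure D1:**
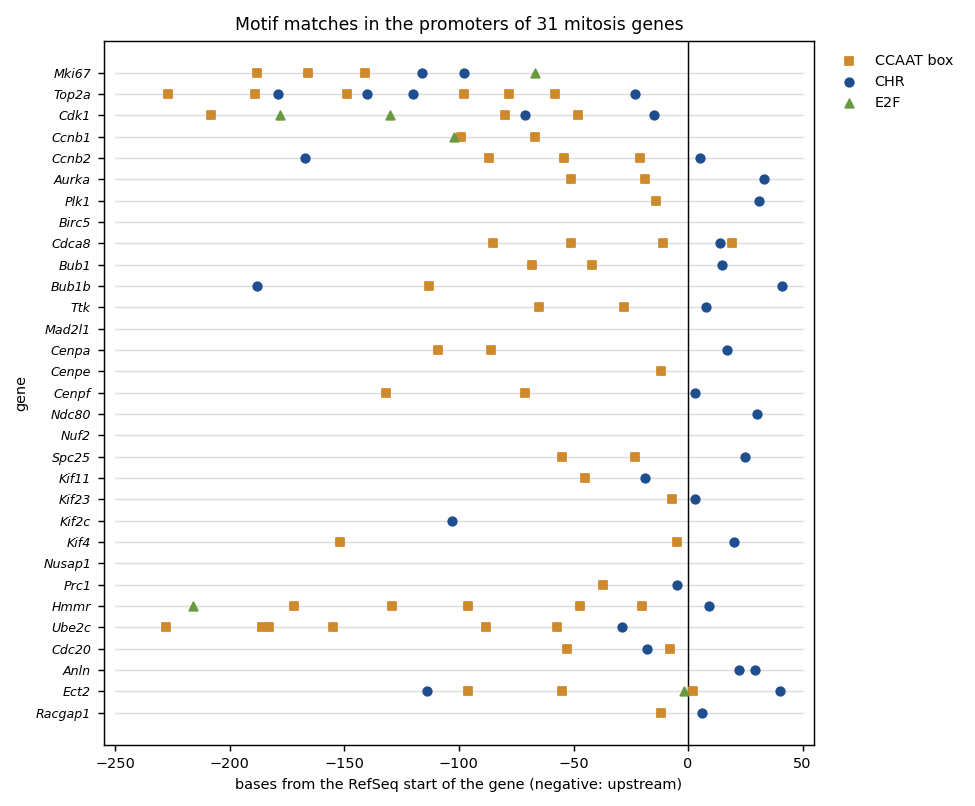
Matches to the CHR (circles), the CCAAT box (squares) and the E2F motifs (triangles) in the RefSeq windows of 31 mitosis genes, by distance in bases from the start of the gene (0, vertical line). Most CHR matches fall within 50 bases of the start, downstream of the CCAAT boxes, and the rows of Birc5, Mad2l1, Nuf2 and Nusap1 are empty.

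All 35 genes were well expressed in tibia. Their means over the 12 mice ran from 9.64 FPKM for Cenpf, a large kinetochore protein, to 218.5 FPKM for Ube2c, which with the anaphase promoting complex attaches ubiquitin to cyclin B. The median of the 35 means was 36.4 FPKM, against 8.25 FPKM over all tested genes, and every one of the 35 lay above the latter. On this scale, which is corrected for length, the next highest were Birc5 (146 FPKM), Mki67 (129 FPKM), Cenpa (115.5 FPKM) and Top2a (112 FPKM). Levels varied little between mice. The highest mouse exceeded the lowest by 1.17-fold for Cdc20 to 1.84-fold for Ect2, with a median of 1.38-fold over the 35 genes. It was 1.56-fold over all tested genes, which were not matched to the 35 for expression level.

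Among the chromosome genes, Mki67 encodes a protein that coats mitotic chromosomes and is the classic proliferation marker (Ki-67). It stood at 148, 128 and 118 FPKM in young AL mice, 106, 113 and 144 FPKM in young CR mice, 124, 164 and 105 FPKM in aged AL mice and 109, 151 and 134 FPKM in aged CR mice. The highest and the lowest mouse were both aged AL mice, and the 4 groups overlapped. Top2a, the topoisomerase that untangles sister chromatids, was at 133, 120.5 and 108 FPKM in young AL, 98.8, 93.9 and 122 in young CR, 116, 129 and 98.2 in aged AL and 95.2, 123 and 103 in aged CR mice. Its groups overlapped as well, with means of 121 ± 12.7 (SD, n = 3), 105 ± 14.8, 114 ± 15.3 and 107 ± 14.4 FPKM in the same order.

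CDK1 and the cyclins were followed next. Cdk1, the kinase that drives entry into mitosis, was at 72.3, 68.3 and 63.8 FPKM in young AL mice, at 65.0, 59.0 and 61.4 in young CR, at 61.5, 62.9 and 54.6 in aged AL and at 56.3, 65.9 and 54.6 in aged CR mice. The young AL mice lay above the aged AL mice, while AL and CR mice of the same age overlapped. Its partner cyclin B1 (Ccnb1) was at 44.3, 42.8 and 38.7 FPKM in young AL, 36.9, 34.9 and 41.5 in young CR, 40.9, 54.2 and 36.0 in aged AL and 33.1, 43.0 and 36.6 in aged CR mice. Aged AL mouse 14 was the highest for both Ccnb1 and Mki67. The related cyclins Ccna2, which acts from S phase to early mitosis, and Ccnb2 ranged from 88.1 to 126 FPKM and from 75.0 to 101 FPKM over the mice.

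Mitotic kinases and their partners differed little between AL and CR mice of the same age. Polo-like kinase 1 (Plk1), which matures centrosomes and the spindle, was at 21.9, 22.3 and 20.3 FPKM in young AL, 22.8, 22.02 and 23.4 in young CR, 26.2, 24.1 and 19.2 in aged AL and 21.0, 21.6 and 20.7 in aged CR mice. Aurkb is the kinase of the chromosomal passenger complex, which corrects faulty attachments. It was at 46.3, 37.4 and 41.5 FPKM in young AL, 36.1, 36.2 and 44.1 in young CR, 42.4, 39.6 and 34.7 in aged AL and 32.9, 37.1 and 34.5 in aged CR mice. For both genes the AL and CR mice of the same age overlapped. Birc5 (survivin), a member of the same complex, was at 181, 169 and 139 FPKM in young AL, 154, 161 and 138 in young CR, 149, 134 and 122 in aged AL and 140.5, 137 and 128 in aged CR mice. Its 2 highest values were in young AL mice, and the lowest young mouse (138 FPKM) fell inside the aged range.

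Cdc20, which activates the anaphase promoting complex, was the steadiest of the 35 genes. It measured 49.1, 49.1 and 47.7 FPKM in young AL mice, 48.1, 46.8 and 48.7 in young CR, 48.7, 44.4 and 43.7 in aged AL and 41.9, 42.2 and 43.2 in aged CR mice. The 3 aged CR mice were lower than every other mouse, by a small margin over aged AL mouse 15.

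**Figure D2:**
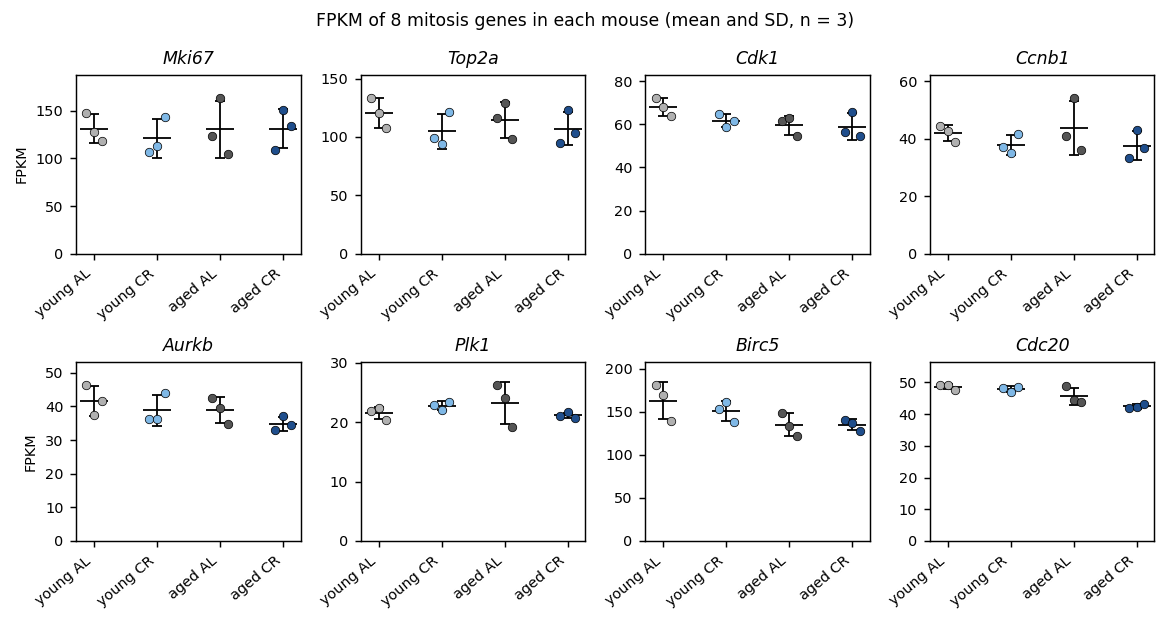
FPKM of 8 mitosis genes in each of the 12 mice (points), with the mean and SD of each group of 3 (bars), on axes that start at 0. Within each age the AL and CR mice overlap for every gene except Cdc20, for which the aged CR mice lie below the other 9 mice.

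The summary of the 35 genes in a mouse is the mean difference of each gene from its own mean over the 12 mice, on the scale log2(FPKM + 1). It was 0.16, 0.13 and -0.00 in young AL mice 9, 10 and 11, -0.03, -0.04 and 0.11 in young CR mice 1, 2 and 3, 0.07, 0.09 and -0.18 in aged AL mice 13, 14 and 15, and -0.19, 0.02 and -0.13 in aged CR mice 5, 6 and 7. The whole range was 0.34 log2 units, and the SD within groups was 0.11. The lowest mice were aged CR 5, aged AL 15 and aged CR 7, so that both aged groups held low and higher mice. Taken gene by gene, 13 of the 35 genes were highest in young AL mouse 9, 8 in young AL mouse 10 and 7 in young CR mouse 3, while 15 were lowest in aged CR mouse 5, 12 in aged AL mouse 15 and 6 in aged CR mouse 7. The young AL mean was the highest of the 4 group means for 27 genes, and the aged CR mean was the lowest for 31. Since the genes move together, these counts do not stand for 35 independent observations. The same counts were not made over all tested genes, so they have no background beside them.

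**Figure D3:**
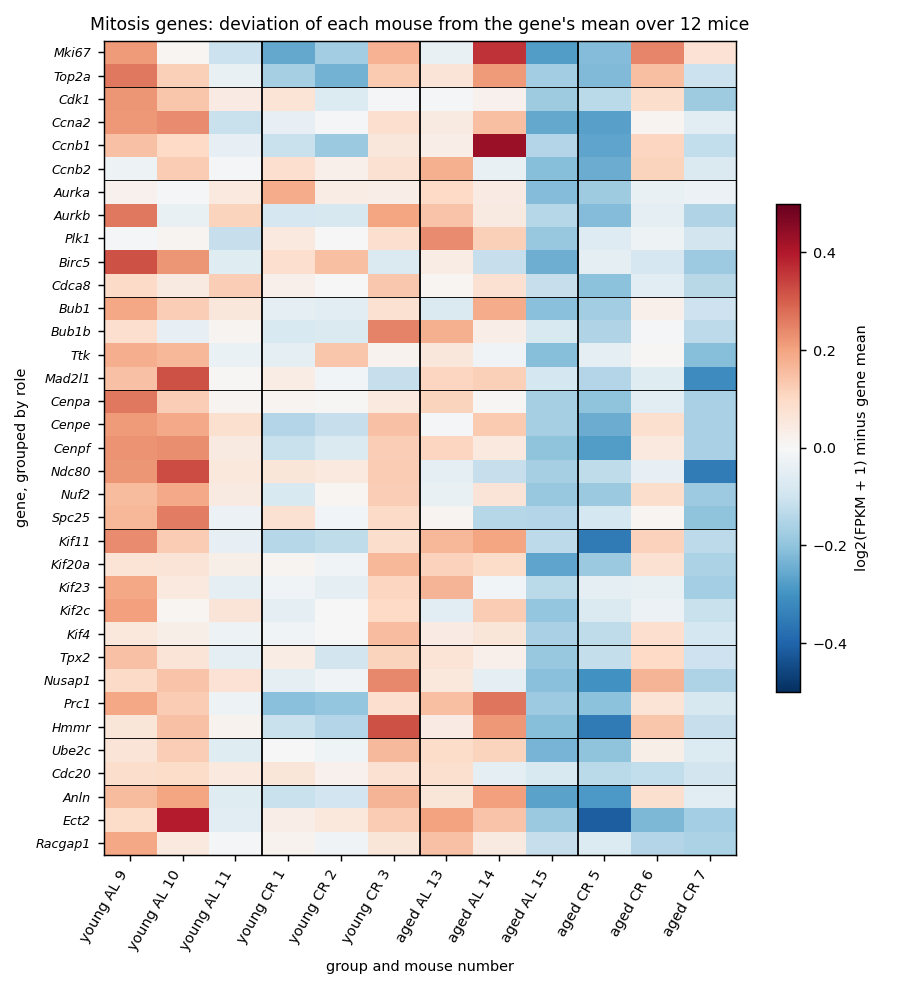
Difference of each mouse from the gene's mean over 12 mice, in log2(FPKM + 1), for 35 mitosis genes grouped by role (rows, horizontal lines) and 12 mice in 4 groups (columns, vertical lines). The columns of aged AL mouse 15 and of aged CR mice 5 and 7 are mostly blue (low), and those of young AL mice 9 and 10 are mostly red (high).

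The first comparison asks whether CR changed the division genes of young tibia. No gene of the 35 passed the test (limma, adjusted p under 0.05), where 0.0662% of all tested genes passed. None reached an unadjusted p under 0.05 in either direction, whereas 787 of the 13590 tested genes did so as higher and 712 as lower. The fold change lay below 0 for 28 genes, against 47.7% of all tested genes, with a median of -0.08 over the 35 and 0.01 over all genes. That median was -0.05 when young AL mouse 9 was left out, -0.15 when AL mouse 11 was and -0.12 when CR mouse 3 was. The 95% intervals of the 35 genes ran from -0.51 to 0.30 log2 units, all within 1.5-fold in either direction. The 6 genes with the smallest p were Mad2l1, Cenpe, Cenpf, Prc1, Cdk1 and Top2a, all lower in CR.

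Mad2l1 is the checkpoint protein that holds back CDC20 (GRCm38, chr6:66535390-66547220). It was at 40.1, 45.3 and 36.3 FPKM in young AL mice, 37.1, 35.8 and 33.3 in young CR, 39.0, 39.3 and 33.96 in aged AL and 32.5, 34.6 and 28.9 in aged CR mice. Within each age the highest 2 mice were AL mice, but the groups overlapped. In young mice its log2 fold change was -0.19 with a standard error (SE) of 0.10 (limma, adjusted p = 0.528).

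Cenpe, a kinetochore motor, was at 15.9, 15.6 and 14.4 FPKM in young AL mice and at 12.2, 12.5 and 15.1 in young CR mice. Aged AL mice had 13.5, 15.0 and 11.98 FPKM and aged CR mice 11.3, 14.4 and 12.03 FPKM. Young CR mouse 3 alone overlapped the young AL mice, and the log2 fold change was -0.20 ± 0.11 (SE). The same mouse decided the overlap for Cenpf (11.4, 11.4 and 9.91 FPKM in young AL against 8.78, 9.05 and 10.5 in young CR mice) and for the spindle midzone protein Prc1 (51.2, 48.8 and 43.9 against 38.5, 38.9 and 47.4 FPKM). In aged mice Cenpf was at 10.4, 9.94 and 8.20 FPKM in AL and 7.71, 9.94 and 8.45 in CR, and Prc1 at 49.6, 54.0 and 39.2 in AL and 38.6, 46.8 and 42.2 in CR. The intervals for Cdk1 (-0.34 to 0.06 log2 units) and Top2a (-0.51 to 0.10) included 0. By role, all 6 kinetochore and centromere genes lay below 0 (median -0.12). So did both chromosome genes, all 4 spindle microtubule proteins and all 3 cytokinesis genes. The 7 genes above 0 were Plk1 (0.08 ± 0.10, SE), Aurka, Ccnb2, Kif4, Bub1b, Ube2c and Kif20a.

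In aged mice, too, no gene of the 35 passed (0% of all tested genes did), and the smallest adjusted p was 0.609 (limma). The fold change was below 0 for 33 genes, against 51.4% of all tested genes, with a median of -0.09 over the 35 and -0.00 over all. An unadjusted p under 0.05 was reached by 1 gene, Ect2, where 3.22% of all tested genes reached it in the lower direction. The groups did not overlap for 1 gene, Cdc20, which was lower in CR, against 5.33% of all tested genes. The 95% intervals ran from -0.61 to 0.41 log2 units, and all but that of Ect2 lay within 1.5-fold.

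Ect2 is the exchange factor that activates RhoA at the division furrow (GRCm38, chr3:27097222-27153878). It was at 11.9, 14.9 and 10.7 FPKM in young AL, 11.4, 11.5 and 12.2 in young CR, 12.9, 12.3 and 9.62 in aged AL and 8.07, 9.35 and 9.74 in aged CR mice. Aged AL mouse 15 fell among the aged CR mice. The log2 fold change in aged mice was -0.32 ± 0.13 (SE), a fold of 0.80 (limma, p = 0.031 before adjustment).

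Racgap1, which with Kif23 forms centralspindlin and recruits ECT2, was at 40.5, 37.6 and 33.5 FPKM in aged AL and at 34.7, 32.8 and 32.5 in aged CR mice, with 41.8, 37.7 and 36.3 in young AL and 36.8, 35.9 and 38.0 in young CR mice. Cdca8 (borealin) is part of the passenger complex and was at 65.4, 68.5 and 59.9 FPKM in aged AL and 56.1, 62.3 and 58.8 in aged CR mice, with 69.4, 67.0 and 70.7 in young AL and 66.1, 65.0 and 71.4 in young CR mice. In both genes aged AL mouse 15 overlapped the CR mice. Kif11, the motor that pushes the spindle poles apart, was at 43.1, 44.1 and 34.9 FPKM in aged AL and 29.7, 41.5 and 34.9 in aged CR mice, with 45.3, 41.9 and 37.3 in young AL and 34.6, 34.97 and 40.7 in young CR mice. None of these passed in aged mice (-0.15, -0.13 and -0.20 on the log2 scale), and Cdc20 was at -0.10 ± 0.06 (SE). The median of the 35 genes in aged mice rested on few animals, since it was -0.05, -0.02 and -0.18 when aged AL mouse 13, 14 or 15 was left out, -0.03 and -0.14 when CR mouse 5 or 6 was, and 0.02 with mice 14 and 5 both left out, a pair chosen after the data had been seen.

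Over both ages the CR effect was estimated from all 12 mice, and again none of the 35 genes passed (0.258% of all tested genes did). The fold change was below 0 for 33 genes, against 49.2% of all genes, with a median of -0.08, and an unadjusted p under 0.05 was reached by 1 gene, Mad2l1, against 6.45% of all genes in the lower direction. Mad2l1 was at -0.20 ± 0.07 (SE), a fold of 0.87 (limma, adjusted p = 0.244). Next came Ect2 (-0.20 ± 0.09, SE), Kif11, Prc1, Cenpf and Cenpa, with log2 fold changes of -0.19, -0.18, -0.15 and -0.12 for the last 4. All 35 intervals lay between -0.40 and 0.22 log2 units, so that every one was within 1.5-fold. Mki67 was at -0.05 (-0.33 to 0.22) and Plk1 at -0.02 (-0.17 to 0.14).

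The comparison of aged with young mice over both diets gave the lowest p-values, although none of the 35 genes passed there either (0.758% of all tested genes did). Fold changes lay below 0 for 32 genes, against 55.6% of all genes, with a median of -0.11 over the 35 and -0.02 over all genes. The median was -0.07 when aged AL mouse 15 was left out, and -0.07 with a quality weight for each mouse. An unadjusted p under 0.05 was reached by 7 genes, all lower in aged mice (Ndc80, Cdc20, Spc25, Birc5, Cdca8, Cenpa and Ect2), against 9.76% of all genes in that direction. Of these, 3 are kinetochore or centromere genes and 2 belong to the chromosomal passenger complex. Groups did not overlap for 1 gene, Ndc80, against 1.7% of all genes in that direction.

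Ndc80 is the subunit of the outer kinetochore that grips the microtubule (GRCm38, chr17:71496100-71526857). It was at 24.5, 26.4 and 21.7 FPKM in young AL mice, 21.8, 21.7 and 22.9 in young CR, 20.2, 19.2 and 18.5 in aged AL and 19.0, 20.3 and 16.2 in aged CR mice. Each of the 6 aged mice was below each of the 6 young mice. The log2 fold change was -0.28 ± 0.07 (SE; 95% interval -0.43 to -0.13), a fold of 0.82, and it missed the threshold (limma, adjusted p = 0.088). With a quality weight for each mouse it passed, at -0.28 (limma, adjusted p = 0.017), where 13.2% of all genes passed.

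Spc25 and Nuf2, its partners in the NDC80 complex among the 35, lay in the same direction, as did most of the 35 genes (32 below 0). Spc25 was at 50.4, 53.8 and 43.9 FPKM in young AL mice, 47.3, 44.4 and 47.9 in young CR, 45.3, 40.6 and 40.4 in aged AL and 42.2, 45.2 and 38.8 in aged CR mice, a log2 fold change of -0.18 ± 0.06 (SE). The lowest young mouse lay below the 2 highest aged mice. Nuf2 was at -0.15 ± 0.07 (SE), with an interval of -0.30 to 0.01. Cenpa, the histone that marks the centromere, was at 138, 125 and 116 FPKM in young AL, 116, 116 and 119 in young CR, 124, 116 and 102 in aged AL and 99.9, 111 and 103 in aged CR mice, at -0.16 ± 0.06 (SE). The aged AL mice overlapped the young ones.

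Among the regulators, Birc5 was at -0.21 ± 0.08 (SE), Cdc20 at -0.13 ± 0.05 (SE) and Cdca8 at -0.14 ± 0.05 (SE) in aged against young mice. In contrast, Mki67 was at 0.05, Ccnb1 at 0.01, Prc1 at 0.01, Plk1 at -0.01 and Top2a at -0.02, with intervals on both sides of 0. The 35 intervals ran from -0.43 to 0.32 log2 units, all within 1.5-fold.

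No gene of the 35 passed for an interaction of diet and age (0% of all tested genes did), and 18 lay below 0 against 52.3% of all genes. None of the 35 had an unadjusted p under 0.05, whereas 322 of the 13590 tested genes did so as higher and 253 as lower. The median was -0.01, and the smallest p were those of Plk1 (-0.20 ± 0.14, SE), Ect2 (-0.25 ± 0.18, SE) and Bub1b (-0.16 ± 0.14, SE), followed by Aurka, Cdk1 and Cdca8. Bub1b, a checkpoint kinase-like protein, was at 23.1, 21.1 and 21.9 FPKM in young AL, 20.6, 20.6 and 26.0 in young CR, 24.7, 22.3 and 20.6 in aged AL and 19.5, 21.6 and 19.8 in aged CR mice. Aurka, the kinase of the spindle poles, was at 35.4, 34.6 and 36.1 FPKM in young AL, 39.7, 35.8 and 35.7 in young CR, 37.4, 35.8 and 29.8 in aged AL and 30.7, 33.9 and 34.1 in aged CR mice. In both genes the groups of each age overlapped. The intervals of this comparison ran from -0.65 to 0.69 log2 units, and those of 2 genes reached beyond 1.5-fold.

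**Figure D4:**
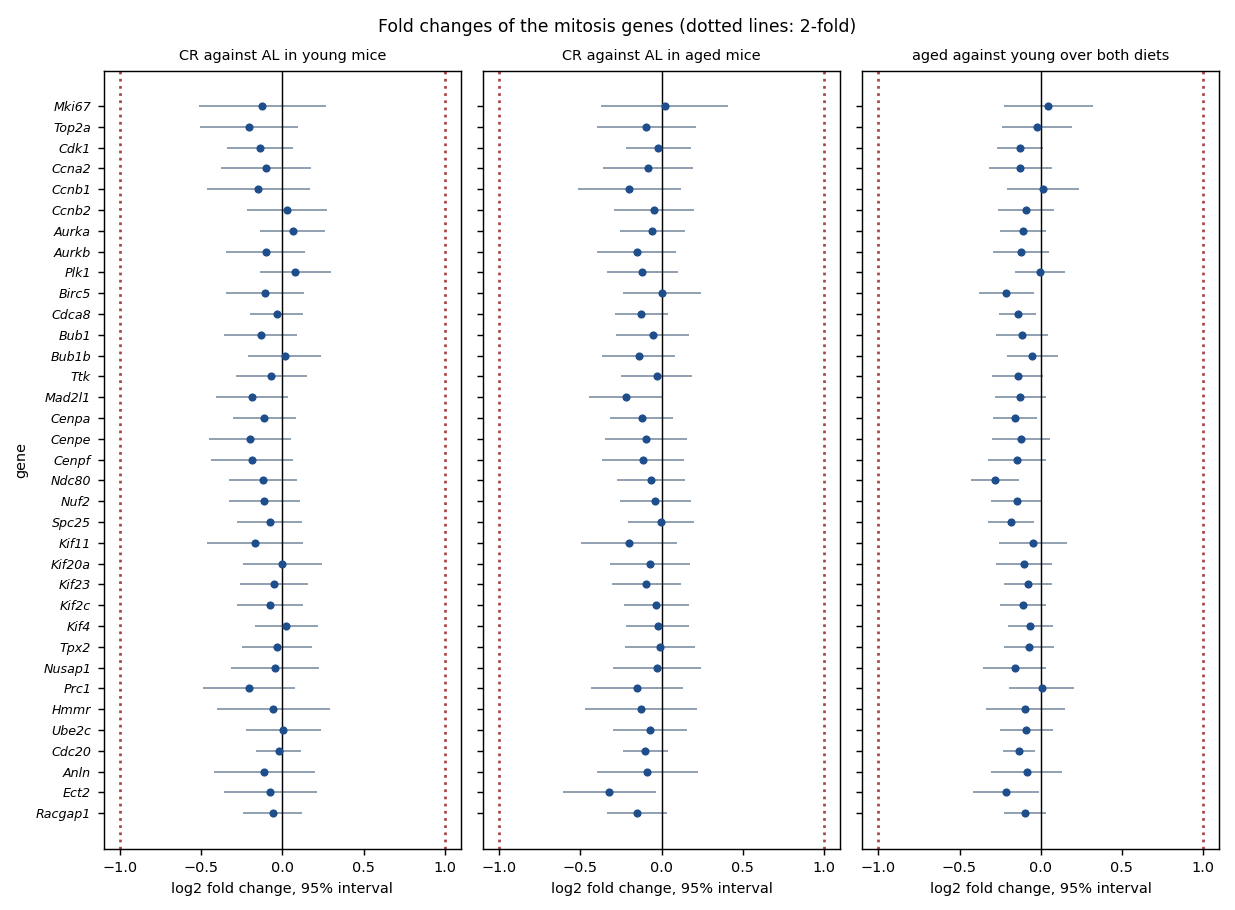
Log2 fold changes of 35 mitosis genes (points) with 95% limma intervals (lines) for CR against AL in young mice, CR against AL in aged mice and aged against young mice over both diets, with dotted lines at a fold of 2. All intervals lie inside the dotted lines, most points lie left of 0, and the interval of Ndc80 for age is among the farthest left.

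Another 56 genes of mitosis, all tested, were compared with the 35. None passed in any of the 5 comparisons. Their median log2 fold change was -0.10 for CR in young mice, -0.09 for CR in aged mice, -0.09 for CR over both ages and -0.12 for age. At an unadjusted p under 0.05, 16 were lower and 2 higher with CR over both ages, where 876 and 1008 of the 13590 tested genes were. In aged mice 18 were lower and 0 higher, against 1326 and 924 of all tested genes. The 56 genes moved with the 35 (Pearson's r of 0.96 between the summaries over the 12 mice), so these counts do not stand for independent observations. The smallest p with CR over both ages were those of Cdc25c, the phosphatase that switches CDK1 on (-0.22 ± 0.05, SE), Arhgap11a (-0.25 ± 0.07, SE), Troap and Ckap2. For age they were Cdc25c (-0.21 ± 0.05, SE), the CDK subunit Cks2 (-0.23 ± 0.06, SE), Pbk and the kinetochore gene Ska1.

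Genes of the preceding phases were set beside the mitosis genes. Of 28 genes of DNA replication and S phase, none passed in any comparison. With CR over both ages their median was 0.01, with 11 below 0, against 49.2% of all tested genes. None of the 28 had an unadjusted p under 0.05, where 1008 of the 13590 tested genes did so as higher and 876 as lower. With age all 28 lay below 0, at a median of -0.11, against 55.6% of all tested genes below 0. An unadjusted p under 0.05 was reached by 4 of them, against 9.76% of all tested genes in that direction. The difference between the mitosis summary and the same summary of the S phase genes was 0.07, 0.07 and 0.01 in young AL mice, -0.10, -0.12 and 0.06 in young CR mice, 0.04, 0.03 and 0.06 in aged AL mice and -0.05, -0.00 and -0.08 in aged CR mice. It was above 0 in all 6 AL mice and below 0 in 5 of the 6 CR mice, and young CR mouse 3 overlapped the AL mice. This was noticed after the values had been seen and was not tested.

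Of the 15 G1 cyclins, pocket proteins and MuvB subunits, none passed, and the smallest p were those of Rb1, the retinoblastoma protein, with CR over both ages (-0.37 ± 0.09, SE) and of Ccnd2, a D-type cyclin, for age (0.68 ± 0.15, SE). Of 7 CDK inhibitors 5 were tested and none passed, and with CR over both ages 3 of the 5 lay below 0 (median -0.02). Cdkn1a (p21) was at 0.36 ± 0.11 (SE), Cdkn1c (p57) at 0.44 ± 0.20 (SE), and Cdkn2c and Cdkn2d at -0.08 each.

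The 35 genes moved together across mice. Pearson's r of log2(FPKM + 1) over the 12 mice had a median of 0.67 over the 595 pairs of genes and was above 0 for all 595, from 0.00 for Mki67 with Cdc20 to 0.96 for Top2a with Prc1. With the group means removed the median was 0.64, and 591 pairs stayed above 0, so that mice of the same group also differed along this shared direction. The mean r was 0.65 over the pairs of the 35 and 0.01 over pairs of all tested genes. The first principal component of the 35 genes held 67.2% of their variance and the second 10.9%. These are descriptions over 12 mice in 4 groups that share 1 normalization.

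Likeness to the summary of the other 34 genes was highest for Cenpf (r = 0.96), Ube2c and Anln (r = 0.92 each) and lowest for Birc5 (r = 0.57), Aurka (r = 0.58) and Plk1 (r = 0.62). Outside the 35, the tested genes closest to the summary over the 12 mice were Pkn2 (r = 0.96), Aspm (r = 0.94), Ncaph (r = 0.93), Gm15452 (r = 0.93), Dlgap5 (r = 0.92), Fbxo3, Casp2, Brca1, Pola1 and Nedd1 (r = 0.90). Of these, Aspm, Ncaph and Dlgap5 belong to the 56 other mitosis genes, and Pola1 is a replication gene. In all, 134 tested genes outside the 35 had an r above 0.8, among them 14 of the 56.

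Marker genes of the cell types in a tibia were summarised in the same way, and their part in the levels of the mitosis genes was not tested. RNA of bone and of marrow was present in every mouse, since 7 osteoblast and osteocyte markers summed to 287 to 1288 FPKM and 8 markers of mature neutrophils to 26950 to 42870 FPKM. Over the 12 mice the mitosis summary had an r of 0.81 with the S phase genes, 0.53 with 12 erythroid precursor markers, 0.49 with 6 growth plate markers, 0.15 with 10 pro-B and pre-B markers, 0.02 with 8 neutrophil precursor markers, -0.45 with 5 skeletal muscle markers and -0.50 with 6 megakaryocyte markers. The erythroid summary was 0.11, -0.13 and -0.22 in young AL, -0.13, -0.10 and 0.24 in young CR, 0.08, 0.27 and -0.36 in aged AL and -0.25, 0.28 and 0.20 in aged CR mice. The lowest mice for it were aged AL mouse 15 and aged CR mouse 5, which were also among the 3 lowest for the mitosis genes. Aged CR mouse 7 was low for mitosis but not for the erythroid markers. For the neutrophil precursor markers aged CR mouse 7 was the lowest mouse (-0.36), with aged CR mouse 5 at 0.10 and aged AL mouse 15 at 0.13. For the pro-B and pre-B markers these mice were at -1.18, -0.27 and 0.57, and the lowest mouse was at -1.45. Summed over the 12 erythroid markers the levels were 2096 to 2612 FPKM in young AL, 2187 to 3107 in young CR, 1839 to 2808 in aged AL and 1891 to 3035 in aged CR mice, and no marker was at 0.

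Single genes differed in their likeness to the marker lists. Mki67 had an r of 0.89 with the erythroid summary and of -0.55 with the pro-B and pre-B summary. Cdc20 had -0.02 and 0.69, Ndc80 -0.08 and 0.60, Birc5 -0.03 and 0.54 and Spc25 0.02 and 0.54. Cdc20 and Ndc80 also had the highest r with the growth plate summary, at 0.83 and 0.79. Because both these summaries had lower means in aged than in young mice, any gene that is lower in aged mice has a positive r with them over all 12 mice more readily, and these r do not show which cells a gene came from.

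**Figure D5:**
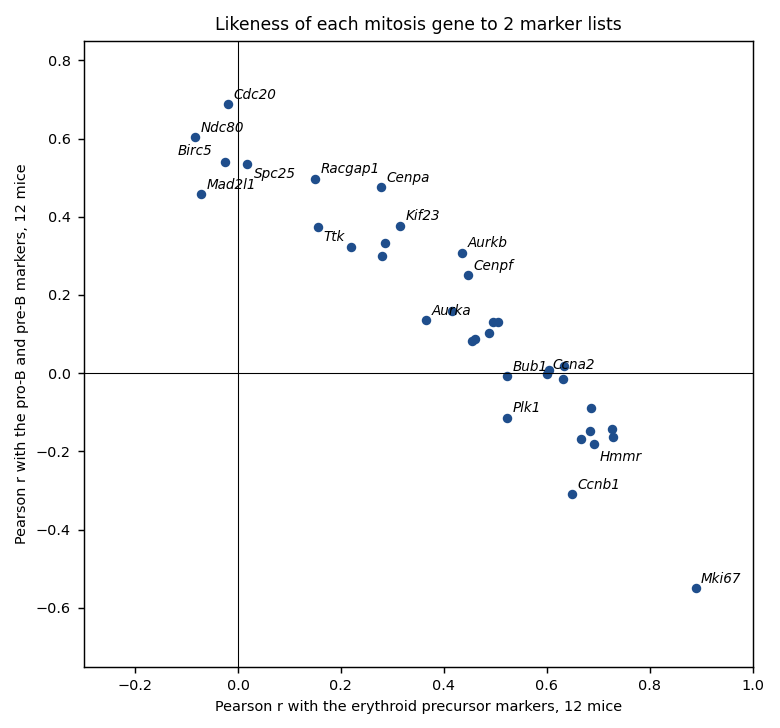
Pearson's r over 12 mice of each of 35 mitosis genes (points, 18 of them named) with the erythroid precursor summary (horizontal axis) and the pro-B and pre-B summary (vertical axis). Points run from Cdc20 and Ndc80 at the upper left to Mki67 at the lower right (0.89 and -0.55).

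All 6 growth plate markers tested, of 9 listed, were lower in aged mice and passed, where 0.758% of all tested genes passed. Matn1, Sox9 and Ihh had means under 1 FPKM. The sum of the 6 was 47.9 to 61.7 FPKM in young AL and 35.8 to 54.3 FPKM in young CR mice. It was 7.08 to 13.2 FPKM in aged AL and 7.23 to 10.0 FPKM in aged CR mice. Matn3 was listed at 0 in aged CR mouse 5 and Matn1 in 4 aged mice. Of 10 pro-B and pre-B markers tested, of 11 listed, 7 were lower in aged mice at an unadjusted p under 0.05. In that direction 9.76% of all tested genes reached it. None of these markers passed, and Vpreb2 was at 0 in aged CR mouse 6. Their sum was 191 to 240 FPKM in young AL, 99.1 to 151 in young CR, 36.4 to 186 in aged AL and 74.5 to 87.6 in aged CR mice. All 6 megakaryocyte markers were higher in aged mice at an unadjusted p under 0.05 (median 0.54) and none passed. In that direction 924 of the 13590 tested genes reached it. Their sum was 1222 to 1423 FPKM in young AL, 795 to 992 in young CR, 1178 to 1794 in aged AL and 1422 to 2176 in aged CR mice, with none at 0. With CR the 6 markers had a median of -0.39 in young and 0.36 in aged mice. For the interaction 5 of the 6 were higher at an unadjusted p under 0.05, as were 322 of all tested genes, and none passed. With CR over both ages all 10 pro-B and pre-B markers lay below 0 (median -0.70), against 49.2% of all tested genes. Of the 10, 4 had an unadjusted p under 0.05, against 6.45% of all tested genes in that direction. All 6 adipocyte markers tested lay above 0 with CR over both ages (median 1.05), of which 2 passed, against 0.258% of all tested genes. The sum of the 6 was 241 to 272 FPKM in young AL and 431 to 556 FPKM in young CR mice. It was 226 to 397 FPKM in aged AL and 410 to 636 FPKM in aged CR mice. The adipocyte summary had an r of -0.50 with the mitosis summary. The muscle summary was highest, at 1.65, in aged AL mouse 14, followed by 1.34 in aged CR mouse 7, and was lowest in aged CR mouse 6 and young CR mouse 3 (-1.20 each). The 5 muscle markers summed to 136 to 260 FPKM in young AL and 111 to 321.5 FPKM in young CR mice. Their sum was 246 to 800 FPKM in aged AL and 117 to 694 FPKM in aged CR mice, so their RNA was present in every mouse.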

How the data were processed

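The authors made stranded mRNA libraries from powdered tibiae. Reads were checked with FastQC 0.11.8 and MultiQC 1.6, trimmed with Trim Galore 0.5.0 and aligned to mm10 with STAR 2.6.1, and the authors deposited FPKM from StringTie 2.1.3b after quantile normalization in R 4.1.1. How the 4 technical repeats of a mouse became 1 value is not stated. Read counts were not used here, so depth is unknown and precision is the spread between mice.

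FPKM were analysed as log2(FPKM + 1), which understates changes of low genes. Only genes averaging at least 1 FPKM over the mice were fitted in limma 3.58.1 (R 4.3.3) with 4 group means and a mean-dependent prior variance, and p-values were adjusted by Benjamini-Hochberg over 13590 genes within each of 5 comparisons. With 3 mice against 3 the smallest exact permutation p is 0.1. The code was tested on simulated data. Positions are from GENCODE M21 (GRCm38), which the authors' sources do not specify. The genes and lists were chosen with earlier results of these data known. Values in every mouse are given for 8 central genes and for the 6 with the smallest p per comparison, from other lists at most 4 genes by p, and the 10 outside genes most like the summary. Alternatives were a pseudocount of 0.1, no filter, size-factor scaling, a quality weight per mouse, fits restricted to 2 groups, the study's test without equal variances, and each mouse left out.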

Additional observations from a re-analysis of the deposited data

How the results depend on the processing

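The count of mitosis genes that passed was 0 in each comparison under each alternative run for it, with 1 exception. Fits of only the compared groups and the unequal-variance test were run for CR in young and in aged mice only. With a quality weight per mouse, 1 gene passed for age, Ndc80, at a log2 fold change of -0.28. At an unadjusted p under 0.05, that weight gave 4 lower genes in young mice, 10 in aged mice, 15 over both ages and 9 for age. Without it these were 0, 1, 1 and 7, and leaving out each mouse gave 0 to 3, 0 to 8, 1 to 9 and 5 to 11. The weight also raised the share of all tested genes that passed, to 2.24%, 1.42%, 6.79% and 13.2% in the same order (0.0662%, 0%, 0.258% and 0.758% without it). For these settings the share of all tested genes at an unadjusted p under 0.05 was not computed, so the counts have no background beside them. The median fold change of the 35 genes in aged mice changed sign when AL mouse 14 and CR mouse 5 were both left out (0.0245 against -0.0867), and 19 of the 35 genes then changed sign. The cause was not tested. Leaving out each mouse gave medians of -0.1538 to -0.0464 in young mice, -0.1779 to -0.0248 in aged mice, -0.1089 to -0.0529 over both ages, -0.1442 to -0.0661 for age and -0.1020 to 0.0433 for the interaction, and the quality weight moved the median for age from -0.1096 to -0.0715. No paired analysis was possible because the numbers that the groups share in the labels are technical repeats of the same mouse, and mouse numbers are not shared between groups. The study describes AL and CR mice as littermates, but the labels do not give litters. Mice were therefore treated as unrelated, and any effect of litter could not be assessed. Depth is unknown and its effect on precision could not be assessed.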
